A study of Mus musculus with 6 samples.

Results

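The genes of voltage-gated sodium and calcium channels were followed in adult mouse cortex with and without a lesion in a single copy of Setd5. Members were taken by symbol from the protein-coding genes of GENCODE M21: the Scn genes with a number and the letter a or b, every Cacna and Cacnb gene (the alpha2delta genes carry Cacna2d symbols), and Cacng1, Cacng4, Cacng5, Cacng6 and Cacng7. Cacng2, Cacng3 and Cacng8 were not members. The rule used no measured value. It gave 37 of the 55450 genes in the tables, 20 that encode pore-forming alpha subunits and 17 that encode auxiliary subunits.

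Polyadenylated RNA of cerebral cortex was sequenced in 3 libraries of Setd5 heterozygous mice and 3 of wild type mice. The sources used here do not name the Setd5 allele, the strain, the sex or an age beyond adulthood. They also do not say whether each library is a different animal, so p-values here gauge variation among libraries, some of which may be technical. Counts are given as CPM, a count relative to the scaled total of its library, and libraries held 82850628 to 92860628 counts before scaling.

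Voltage-gated channels open when the membrane depolarises. Sodium channels carry the upstroke of the action potential, and calcium channels turn depolarisation into calcium entry for transmitter release, dendritic signals and gene regulation. In both families a single large alpha subunit forms the pore and senses voltage, while smaller auxiliary subunits set its traffic to the membrane and its gating.

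No channel gene passed the test between genotypes. Of the 36 members tested, 0 were higher and 0 were lower at an adjusted p under 0.05 (edgeR's quasi-likelihood test with Benjamini-Hochberg adjustment), against 0% of the 27939 genes tested in either direction. An unadjusted p under 0.05 was reached by 0 of 36 members. Among all tested genes 5.83% reached it, 2.44% higher and 3.38% lower, and the lowest adjusted p among members was 0.865, for Cacng4. DESeq2 called 0 members, with 0.0648% of its genes called higher and 0.186% called lower, and limma-voom called 0 members and 0% of all genes. At an unadjusted p under 0.05 both had 0 members, against 5.55% of all genes in DESeq2 and 5.8% in limma-voom. Library ranges of the genotypes were separate for 1 member, Scn3b, or 2.78% of those tested, against 11.7% of all tested genes (5.88% higher and 5.85% lower in heterozygotes). Scn3b was lower. In 24 of 36 members the 95% interval of the log2 difference lay within 0.5 of 0, and in 10 it lay within 0.25. A miss of the threshold does not show that levels were equal, and these intervals are the sizes that the libraries leave possible.

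The fitted level was higher in heterozygotes for 15 members and lower for 21, so 41.7% were higher, against 49.9% of all tested genes. The median log2 difference (heterozygous minus wild type throughout) was -0.017 over alpha subunits and -0.063 over auxiliary subunits, against -0.001 over all tested genes. Without wild type replicate 3 the split turned: 25 of 36 members, or 69.4%, were higher, against 51.4% of all genes then tested. The medians were then 0.040 for alpha and 0.072 for auxiliary subunits. In that library the mean log2 level of the tested genes, set relative to the wild type mean, was 0.20 for alpha and 0.31 for auxiliary subunits, higher than in the other 5 libraries, and 0.21 for auxiliary subunits other than Scn4b.

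**Figure D1:**
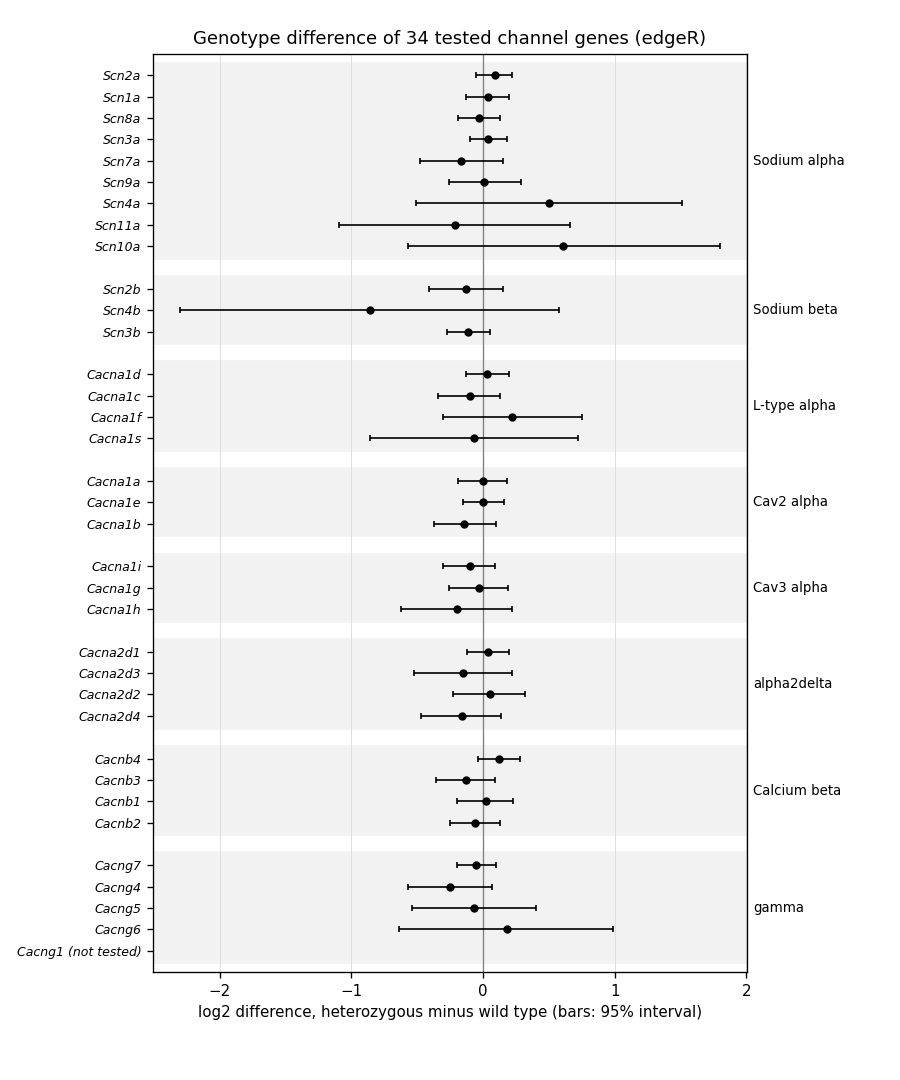
Log2 difference in level, heterozygous minus wild type, with its 95% interval for 34 tested members, by role (horizontal axis in log2 units). The 34 intervals drawn cross 0, the fitted value furthest from 0 is that of Scn4b at -0.86, and Cacng1 was not tested.

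Setd5 served as the check of the labels. In heterozygous replicates 1 to 3 it was at 69.5, 68.7 and 75.3 CPM, and wild type replicates 1 to 3 had 111, 96.9 and 108 CPM. Every heterozygous library was below every wild type one, and the fitted level was 67.7% of wild type (95% interval 60.6% to 75.6%; edgeR adjusted p = 0.258, DESeq2 adjusted p = 3.08e-07). Wild type replicate 3 stood apart in markers of striatum projection neurons, the inhibitory cells of the nucleus beneath cortex. The summed level of the 9 markers was 315, 434 and 709 CPM in heterozygous replicates 1 to 3 and 230, 411 and 1630 CPM in wild type replicates 1 to 3, and 9 of 9 were highest in that last library. The 5 hippocampus markers also summed highest there, at 81.8 CPM, of which Wfs1 gave 55.2. Their sums were 48.5 to 53.6 CPM in heterozygotes and 49.7 and 53.4 CPM in wild type replicates 1 and 2. Ependyma and choroid plexus markers summed to 15.3 CPM there, 14.3 CPM in heterozygous replicate 3 and 6.42 to 9.76 CPM in the remaining libraries. The part of these 2 lists in the channel levels was not tested. Xist, the transcript of the inactive X chromosome, was at 865 CPM in heterozygous replicate 3, at 783 CPM in wild type replicate 3 and under 1 CPM in the other libraries. Xist and the striatum markers thus both set these libraries apart in their groups, and their parts in a channel difference cannot be told apart. The 5 excitatory neuron markers summed to 2960 to 3280 CPM in heterozygotes and 3030 to 3310 CPM in wild type. In bulk tissue fewer cells of a type and less RNA per cell cannot be told apart.

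Among the 10 sodium channel alpha genes, 4 made up nearly all of the level. Levels between genes are given in CPM per kilobase of exon, averaged over the 6 libraries. The divisor counts every annotated exon base, used in cortex or not, so orders between genes depend on the annotation too. Scn2a, the channel of excitatory axons and developing neurons, was highest at 35.6. It was followed by Scn1a, best known from fast-spiking interneurons, at 26.4, Scn8a, the channel of mature axon initial segments and nodes, at 15.5, and Scn3a, most abundant before birth, at 4.94. The library ranges of these neighbours did not overlap.

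Scn2a lies at chr2:65620771-65767447 (GRCm38) in a cluster with 4 other members. Apart from Scn7a, these copies are alike enough to bear on how reads are assigned. The next gene is Scn3a, 53.1 kb away on the other strand, with Scn1a, Scn9a and Scn7a on the other side. Scn1a and Scn2a share an identical coding stretch of 188 bases. Over whole transcripts, the share of 50-base windows found in another annotated gene was 5.76% for Scn2a, 4.03% for Scn1a, 6.49% for Scn3a and 4.16% for Scn9a. It was 0% for Scn7a and 0.0374% for Scn8a. No source used here says how reads matching several genes were treated, so the levels of Scn1a, Scn2a, Scn3a and Scn9a are uncertain. These shares do not bound the error, as reads of an abundant gene could make up more of a scarcer one. Scn3a shared 529 of its 12500 windows with the more abundant Scn2a, and Scn9a shared 406 of 13001 with the more abundant Scn3a.

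In heterozygous replicates 1 to 3 Scn2a was at 475, 478 and 447 CPM, and in wild type replicates 1 to 3 at 437, 448 and 434 CPM. Heterozygous replicates 1 and 2 were above every wild type library, and replicate 3 was just under wild type replicate 2, so the groups overlapped. The log2 difference was 0.09 (95% interval -0.05 to 0.22; edgeR adjusted p = 0.884). Scn2a made up 43.0% ± 1.10 (SD, n = 3) of the summed sodium alpha level per kilobase in heterozygotes and 41.7% ± 0.808 in wild type. Scn1a was at 324, 296 and 273 CPM in heterozygotes and 281, 298 and 291 CPM in wild type. The highest and the lowest library were both heterozygous, and the log2 difference was 0.04 (-0.13 to 0.20; edgeR adjusted p = 0.961).

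Scn8a and Scn3a are given beside them because the 4 genes carry the cortical level. Scn8a was at 254, 233 and 239 CPM against 251, 228 and 263 CPM, with a log2 difference of -0.03 (-0.19 to 0.13). Scn3a was at 61.5, 61.3 and 63.9 CPM against 63.8, 60.4 and 58.0 CPM, with a log2 difference of 0.04 (-0.10 to 0.18). The heterozygous range lay inside the wild type range for Scn8a, and the ranges crossed for Scn3a. The summed sodium alpha level was 85.4 ± 3.82 CPM per kilobase in heterozygotes and 82.9 ± 0.717 in wild type (SD, n = 3 each).

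Scn4a, Scn7a, Scn9a, Scn10a and Scn11a were low. Scn7a, whose product is a sodium sensor rather than a classical voltage-gated channel, and Scn9a, a channel of sensory neurons, averaged 0.726 and 0.700 CPM per kilobase. Scn4a, the skeletal muscle channel, was at 0.0522. Scn11a and Scn10a, channels of pain-sensing neurons, were at 0.0396 and 0.0386. Scn10a gave 0.348, 0.485 and 0.286 CPM against 0.0709, 0.370 and 0.283 CPM, where a count of 0 would allow up to 0.0326 to 0.0364 CPM depending on the library (a limit that covers counting error only). The 6 skeletal muscle markers summed to 11.2 to 11.9 CPM in heterozygotes and 11.4 to 12.6 CPM in wild type, and the 5 sensory neuron markers to 1.45 to 3.88 and 1.35 to 5.26 CPM. Single genes carried much of these sums. Isl1 gave 4.31 of the 5.26 CPM in wild type replicate 3, and Acta1 gave 7.07 to 8.95 CPM of the muscle sum. None of these 11 markers was at 0 in every library.

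**Figure D2:**
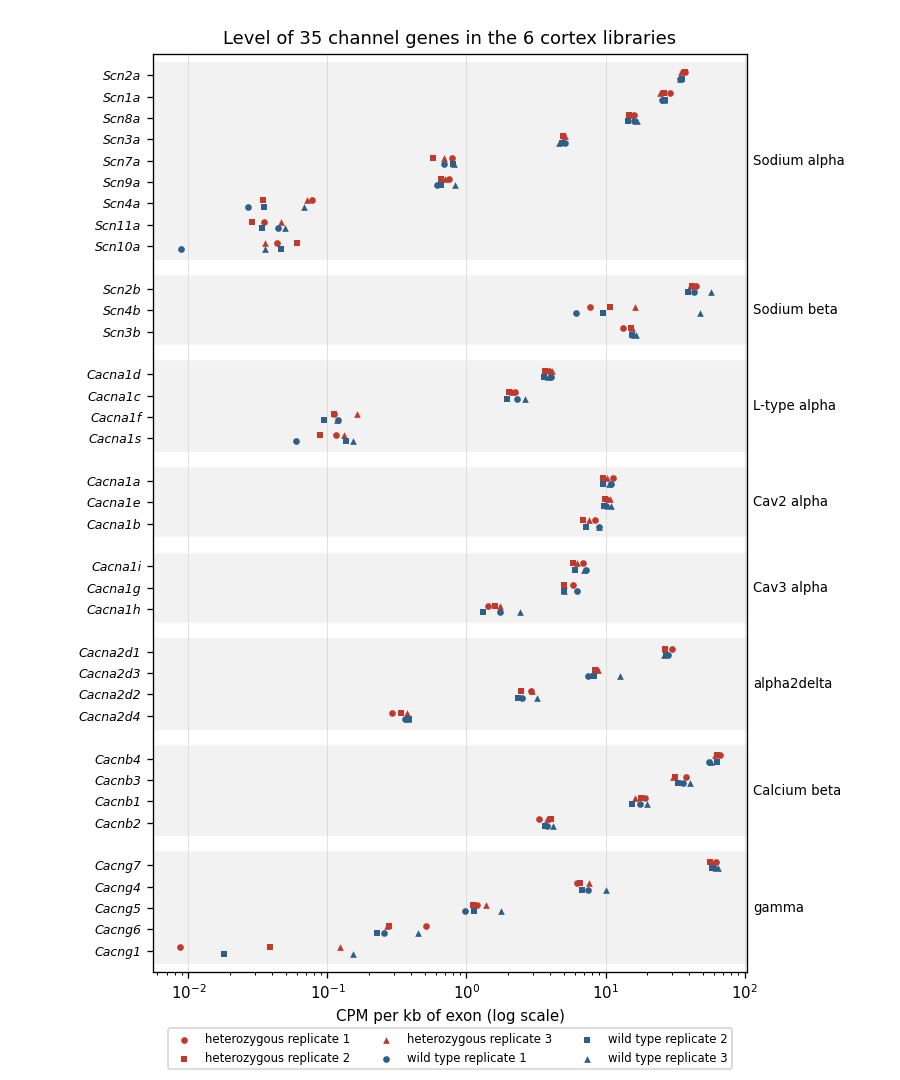
Level of 35 members in each library, in CPM per kilobase of exon on a log axis, by role and genotype. Cacnb4 averages 61.4 and Scn10a 0.0386, the wild type replicate 3 point of Scn4b stands right of its other points, and Cacng1 in wild type replicate 1, at 0 counts, cannot be drawn.

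Sodium channel beta subunits are small adhesion-type proteins that bind the alpha subunit and tune its gating. Scn2b, whose protein is joined to alpha by a disulfide bond, was at 209, 194 and 189 CPM in heterozygotes and 201, 183 and 266 CPM in wild type. Wild type replicate 3 was above the other 5 libraries, which ran from 183 to 209 CPM. The log2 difference of Scn2b was -0.13 (-0.41 to 0.15; edgeR adjusted p = 0.904).

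Scn3b, a noncovalently bound beta subunit, was at 73.2, 83.5 and 84.2 CPM in heterozygotes and 84.3, 84.4 and 90.5 CPM in wild type. Each heterozygous library was below each wild type library, by as little as 84.2 against 84.3 CPM. The log2 difference was -0.11 (-0.27 to 0.05; edgeR adjusted p = 0.874), and the two-sided exact permutation test gave p = 0.1, the smallest that 3 against 3 libraries allow. With upper quartile scaling the ranges overlapped.

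Scn4b, a beta subunit known for its high level in striatum projection neurons and for its part in resurgent sodium current, spread more than any other member with a mean of at least 1 CPM. Heterozygous replicates 1 to 3 had 38.8, 53.8 and 81.5 CPM, and wild type replicates 1 to 3 had 30.4, 47.4 and 239 CPM. The highest library was 7.85 times the lowest, a ratio exceeded by 0.332% of the 18981 genes with at least 1 CPM. Wild type replicate 1 was the lowest library, replicate 2 lay inside the heterozygous range and replicate 3 was far above it. The log2 difference was -0.86 (SE 0.64, -2.30 to 0.58; edgeR adjusted p = 0.886), or 55.0% of wild type with an interval from 20.3% to 149%. Without wild type replicate 3 it was 0.58, and with the libraries of high Xist left out 0.25.

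Scn4b lies 8.32 kb from Scn2b on chromosome 9. Scn4b had the same order over the 6 libraries as the summed striatum markers and stood at 11.5% to 14.7% of that sum. In an edgeR fit with genotype and the log2 striatum marker level, Scn4b rose by 0.80 log2 units per unit of marker level (SE 0.07, adjusted p = 0.000479). It was the 1 member of 36 that passed this test, which 0.63% of all tested genes passed, and Scn4b was included among the values after they were seen. With the marker level in the fit, the genotype difference of Scn4b was -0.05. At an unadjusted p under 0.05 the marker slope was reached by 7 of 36 members, against 9.51% of all tested genes. The slope was positive for 6 of them, a sign and threshold met by 5.5% of all tested genes. In log2 units per unit of marker level these included 0.80 for Scn4b, 0.22 for Cacng5, 0.18 for Cacna2d3, 0.15 for Cacna1h and 0.14 for Cacng4. The slope of Cacna1g was -0.08. Of all members 27 of 36 had a positive slope, against 49.8% of all tested genes.

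**Figure D3:**
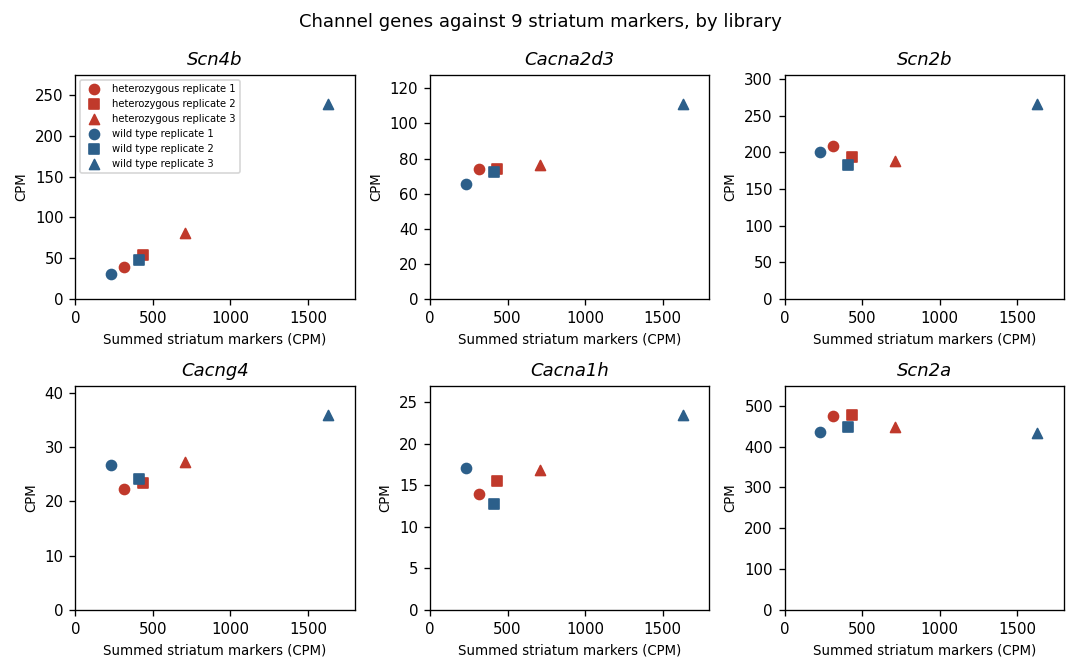
Levels of Scn4b, Cacna2d3, Scn2b, Cacng4, Cacna1h and Scn2a against the summed level of the 9 striatum projection neuron markers, 1 point per library, both axes linear in CPM. Scn4b climbs from 30.4 to 239 CPM as the marker sum goes from 230 to 1630 CPM.

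L-type calcium channels couple activity to gene expression in neurons and to contraction in muscle. Cacna1d and Cacna1c, the neuronal members, averaged 3.87 and 2.22 CPM per kilobase. Cacna1d held 62.2% ± 0.793 of the summed L-type level per kilobase in heterozygotes and 60.4% ± 2.91 in wild type (SD, n = 3). This split rests on annotated exon lengths of 12621 bases for Cacna1d and 21191 for Cacna1c. Undivided, their mean CPM was 49.5 and 45.3 in heterozygotes and 48.4 and 48.6 in wild type. Cacna1d was at 49.8, 46.2 and 52.4 CPM in heterozygotes and 50.8, 45.5 and 48.8 CPM in wild type, a log2 difference of 0.03 (-0.13 to 0.20; edgeR adjusted p = 0.967). Cacna1c was at 47.7, 42.8 and 45.4 CPM against 48.7, 41.2 and 55.9 CPM, a log2 difference of -0.10 (-0.34 to 0.13; edgeR adjusted p = 0.913). Its heterozygous range lay inside the wild type range. Cacna1c lies 5.43 Mb from Setd5 on chromosome 6. Cacna1f, the photoreceptor channel, and Cacna1s, the skeletal muscle channel, were at 0.120 and 0.114 CPM per kilobase. An antisense model covers 20% of the exon bases of Cacna1s, and as the libraries carry no strand, reads of that overlap cannot be told from those of the model.

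Cav2 channels are the presynaptic calcium channels that trigger transmitter release. Cacna1a, of the P/Q-type channel, and Cacna1e, of the R-type channel, averaged 10.4 and 10.3 CPM per kilobase and overlapped over the libraries, and Cacna1b, of the N-type channel, averaged 8.02. Cacna1a was at 129, 109 and 117 CPM in heterozygotes and 126, 109 and 121 CPM in wild type. Cacna1e was at 255, 250 and 273 CPM against 256, 246 and 275 CPM. Cacna1e was thus higher in CPM, and the like levels per kilobase rest on exon lengths of 11418 bases for Cacna1a and 25228 for Cacna1e. For both genes the ranges of the genotypes nearly coincided. The log2 difference was 0.00 for each, with intervals of -0.19 to 0.18 for Cacna1a and -0.15 to 0.16 for Cacna1e (edgeR adjusted p = 0.997 for both). Cacna1b, included to complete the family, was at 84.0, 68.2 and 75.8 CPM against 89.3, 71.4 and 89.7 CPM, a log2 difference of -0.14 (-0.37 to 0.10). Its groups overlapped, with wild type replicate 2 under heterozygous replicates 1 and 3.

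Cav3 channels open at low voltage and support burst firing. Cacna1i and Cacna1g averaged 6.54 and 5.35 CPM per kilobase and Cacna1h 1.70. Cacna1i was at 67.7, 57.2 and 61.6 CPM in heterozygotes and 71.1, 59.9 and 69.5 CPM in wild type (log2 difference -0.10, -0.30 to 0.09). Cacna1g was at 59.2, 50.7 and 50.9 CPM against 62.7, 50.7 and 51.1 CPM (log2 difference -0.03, -0.26 to 0.19). In Cacna1a, Cacna1b, Cacna1e, Cacna1g and Cacna1i alike, replicate 2 was the lowest or level with the lowest in each genotype. Cacna1h was at 14.0, 15.5 and 16.9 CPM against 17.1, 12.8 and 23.5 CPM, with its wild type libraries spread on both sides of the heterozygous ones (log2 difference -0.20, -0.62 to 0.22).

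The alpha2delta proteins are extracellular subunits that bring calcium channels to the membrane, and the products of Cacna2d1 and Cacna2d2 bind gabapentin. Cacna2d1 was the highest at 27.6 CPM per kilobase, then Cacna2d3 at 9.05, Cacna2d2 at 2.73 and Cacna2d4 at 0.355, with no overlap of neighbours over the libraries. Cacna2d1 was at 375, 334 and 331 CPM in heterozygotes and 350, 340 and 324 CPM in wild type, a log2 difference of 0.04 (-0.12 to 0.20; edgeR adjusted p = 0.958). Cacna2d3 was at 74.2, 73.8 and 76.4 CPM in heterozygotes and 65.5, 72.3 and 111 CPM in wild type. Wild type replicate 3 was again the highest library, and the other 2 wild type libraries lay under every heterozygous one. The log2 difference of Cacna2d3 was -0.15 (-0.52 to 0.22; edgeR adjusted p = 0.918) and 0.12 without wild type replicate 3.

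Calcium channel beta subunits are cytoplasmic proteins that bind the alpha subunit and hold it at the membrane. Cacnb4, a main cortical and cerebellar form, averaged 61.4 CPM per kilobase, followed by Cacnb3 at 35.0, Cacnb1 at 17.7 and Cacnb2 at 3.81, again with no overlap of neighbours. Cacnb4 was at 596, 569 and 552 CPM in heterozygotes and 500, 568 and 513 CPM in wild type. Wild type replicate 2 reached the heterozygous range and the other 2 wild type libraries did not. The log2 difference of Cacnb4 was 0.12 (-0.04 to 0.28; edgeR adjusted p = 0.871). A noncoding transcript on the other strand, A430018G15Rik, covers 16% of the exon bases of Cacnb4, so part of this level may be its own. Cacnb3 was at 152, 127 and 122 CPM against 144, 133 and 164 CPM, with overlapping groups and a log2 difference of -0.13 (-0.36 to 0.09; edgeR adjusted p = 0.887).

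The gamma genes among the members include Cacng1 and Cacng6, subunits of muscle calcium channels, and Cacng4, Cacng5 and Cacng7, whose proteins also accompany AMPA-type glutamate receptors. Cacng7 held 87.5% ± 1.34 of the summed level per kilobase of these gamma genes in heterozygotes and 86.4% ± 2.16 in wild type (SD, n = 3). Cacng2, Cacng3 and Cacng8 are not in that sum, so it is not the whole gamma level of cortex. It was at 152, 138 and 142 CPM against 148, 142 and 158 CPM, with overlapping groups and a log2 difference of -0.05 (-0.20 to 0.10; edgeR adjusted p = 0.931). Cacng4 was at 22.3, 23.3 and 27.3 CPM in heterozygotes and 26.6, 24.1 and 35.9 CPM in wild type. Heterozygous replicate 3 lay above wild type replicates 1 and 2, and the log2 difference was -0.25 (-0.57 to 0.07; edgeR adjusted p = 0.865). Cacng5 was at 4.58, 4.29 and 5.30 CPM against 3.74, 4.33 and 6.78 CPM, with both ends of the range in wild type (log2 difference -0.07, -0.54 to 0.40). Cacng6 averaged 0.331 CPM per kilobase. Cacng1, the 1 member not tested, had 1, 4 and 14 counts in heterozygotes and 0, 2 and 17 counts in wild type.

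**Figure D4:**
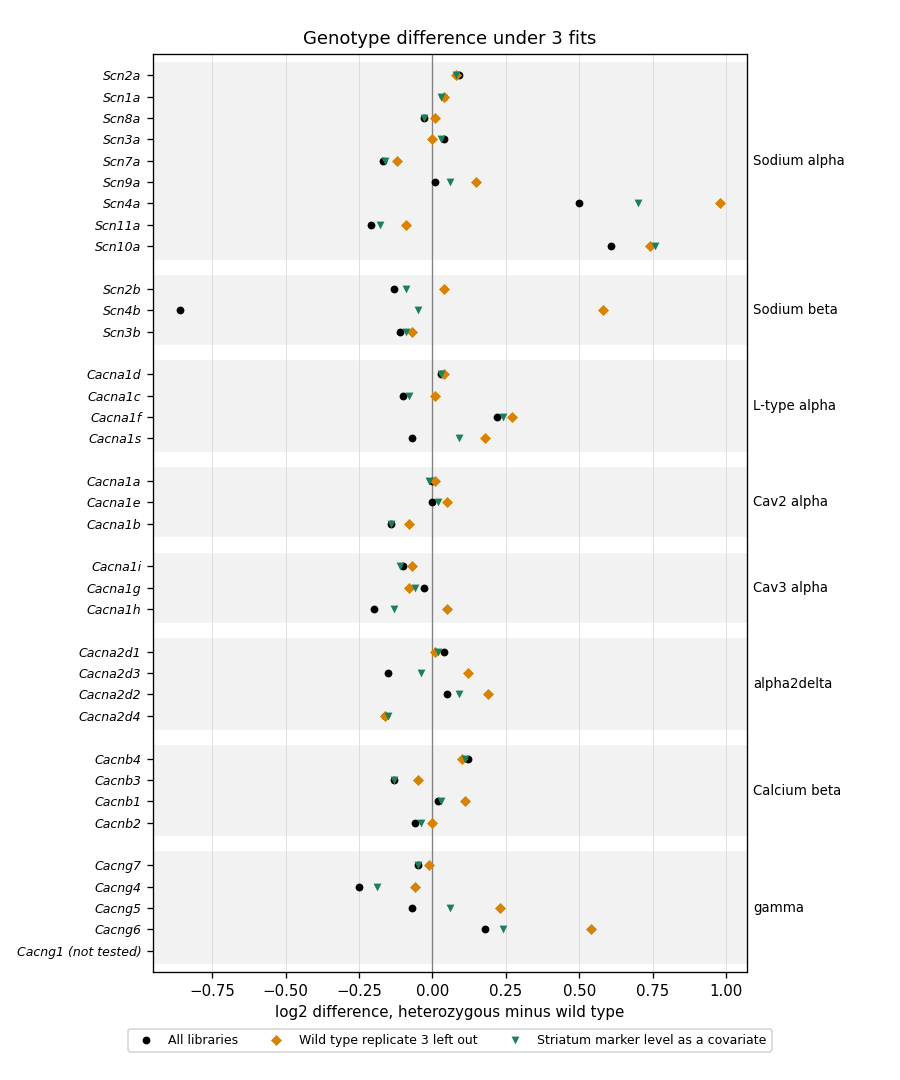
Log2 difference of 34 tested members, heterozygous minus wild type, from all libraries, without wild type replicate 3, and with the striatum marker level as a covariate. Scn4b moves from -0.86 to 0.58 and -0.05, the largest move among the members drawn.

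Genes known to act on these channels were counted from lists of sodium channel partners and calcium channel partners. A further list of other voltage-gated or leak cation channels, not chosen as partners, was pooled with them. Of 57 tested, 0 passed the adjusted threshold, 2 were higher and 4 lower at an unadjusted p under 0.05, which is 10.5% against the 5.83% of all tested genes. Library ranges were separate for 8 of 57, or 14.0%, against 11.7%. The further list held 9 of the 57, with 0 at an unadjusted p under 0.05 and 2 with separate ranges. At that p the share was 11.8% of the sodium and 12.9% of the calcium channel partners. The lowest adjusted p was that of Akap5, a scaffold that anchors kinase and phosphatase beside L-type channels. Akap5 was at 138, 140 and 134 CPM in heterozygotes and 166, 147 and 188 CPM in wild type, with no overlap (log2 difference -0.28, SE 0.09; edgeR adjusted p = 0.797).

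The other 3 that were lower at the unadjusted threshold also had separate ranges. Fgf13, an intracellular fibroblast growth factor homologue that binds sodium channels, was at 106, 97.8 and 85.8 CPM against 107, 110 and 117 CPM (log2 difference -0.21). Cachd1, a protein related to alpha2delta, was at 5.91, 6.46 and 6.17 CPM against 7.07, 7.10 and 7.77 CPM (-0.24). Klhl1, an actin-binding protein that acts on calcium channels, was at 8.01, 7.31 and 7.86 CPM against 8.75, 12.9 and 9.24 CPM (-0.41). None of these 3 passed after adjustment. Prrt2, a presynaptic protein that binds sodium channels, had the opposite order, with 203, 203 and 193 CPM in heterozygotes above 179, 167 and 189 CPM in wild type (log2 difference 0.16). Calm2, which encodes calmodulin, was at 650, 648 and 588 CPM against 563, 598 and 496 CPM and overlapped between groups (log2 difference 0.19).

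Promoters were compared between the classes as a description, with no test. RefSeq promoters of GRCm38.p6, from 250 bases before to 50 after a start, were matched for 27 of 37 members, with 38 promoters. The median GC content was 53.7% over those of alpha genes and 64.8% over those of auxiliary genes, against 52.7% over all promoters. On either strand the letters GGGCGG were in 30% of alpha and 55.6% of auxiliary promoters, against 35.7% of all, and CCAAT was in 26.3% of the members' promoters against 37.4% of all. The 250 bases before the first listed start are printed for Scn2a, at chr2:65620519-65620768, and Scn8a, at chr15:100870395-100870644, both on the plus strand. These were the highest alpha genes per kilobase whose stretch before the first listed start lies wholly outside annotated exons. The Scn8a stretch lies in an intron of transcripts that start further upstream. Capitals mark CG pairs.
Scn2a: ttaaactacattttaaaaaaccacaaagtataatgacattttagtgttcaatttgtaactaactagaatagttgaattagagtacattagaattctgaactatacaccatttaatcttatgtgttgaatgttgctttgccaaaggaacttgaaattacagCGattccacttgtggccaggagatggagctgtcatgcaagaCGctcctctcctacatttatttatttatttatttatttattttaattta
Scn8a: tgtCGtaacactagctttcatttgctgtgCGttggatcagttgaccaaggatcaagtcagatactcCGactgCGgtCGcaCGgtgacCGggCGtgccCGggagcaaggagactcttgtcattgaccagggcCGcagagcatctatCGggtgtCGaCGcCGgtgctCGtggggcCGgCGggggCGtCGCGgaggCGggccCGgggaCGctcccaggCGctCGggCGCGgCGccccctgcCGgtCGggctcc
The Scn2a stretch is 29.6% GC with 2 CG pairs, and the Scn8a stretch is 68% GC with 30. This contrast belongs to the first listed starts. The promoters at the second listed starts were 47.7% GC for Scn2a and 53.3% GC for Scn8a. A match is a run of letters and not a shown site of binding.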

How the data were processed

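The authors deposited a table of read counts per gene for each library, whole numbers with no normalization. The submitters' processing notes name mm10 and GRCm38.p6 as builds and, as tools, featureCounts, DESeq2, FastQC and Bowtie2 (2.3.4.3). Tool settings, strand and the handling of reads matching several genes: not given in the sources used here. Trizol RNA was DNase-treated before a TruSeq library kit that does not mark strand, per the labels' protocols.

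All 55450 identifiers matched GENCODE M21 (GRCm38). Genes were filtered with filterByExpr (minimum count 10, total 15), scaled by TMM and tested with the quasi-likelihood test of edgeR 4.0.16 in R 4.3.3, with Benjamini-Hochberg adjustment over 27939 genes, a threshold of 0.05 and no covariate. CPM uses effective library sizes. Levels per kilobase use the union of annotated exons. The upper limit for a count of 0 is 3 counts of the effective library size, and lacking molecular identifiers, reads may repeat a molecule. No libraries agreed within sampling noise (chi-square per gene 10.9 to 85.2). Pairs did not sort by genotype, at 10.9 to 52 within heterozygotes, 44.5 to 85.2 within wild type and 15.9 to 70.4 between genotypes. The test was also run on counts simulated from these genes' means, dispersions and library sizes. That run held no differences shared by genes within a library, such as those of the striatum markers. No result here rests on it.

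Members and lists were chosen with earlier results of these data known. Values in every library were given for members at an unadjusted p under 0.05, with separate ranges, or among the 2 highest per kilobase of a role, and for partners at an unadjusted p under 0.05. Scn3a, Scn4b, Scn8a, Scn10a, Cacna1b, Cacna1h, Cacng1, Cacng5, Nalcn, Rims2 and Tpcn2 were added after their values were seen. Some members that the rule takes, and some sequences, are counted but not reported here. Alternatives were 3 scalings, 2 filters on low counts, DESeq2 1.42.0, edgeR's likelihood ratio test, limma-voom (limma 3.58.1) with and without library quality weights, a gene length trend removed, the striatum marker level as a covariate, libraries with high Xist left out, and each library left out in turn.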

Additional observations from a re-analysis of the deposited data

How the results depend on the processing

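Over 18 alternatives, 0 of 643 member values passed the adjusted threshold and 64 had the opposite sign. Of the 36 tested members, 12 kept their sign throughout and 24 did not, 10 of them without wild type replicate 3. The auxiliary median, -0.063 as reported, turned to 0.072 without wild type replicate 3, 0.087 without the libraries of high Xist and 0.011 with limma-voom quality weights, and was negative otherwise, down to -0.127. The alpha median, -0.017 as reported, ran from -0.072 to 0.040. Members with separate ranges, 1 as reported, numbered 0 with upper quartile factors (11.9% of all genes), 10 without the libraries of high Xist (39% of all genes, since fewer libraries overlap less) and 2 to 8 when 1 library was left out (17.5% to 26.3% of all genes). Members at an unadjusted p under 0.05, 0 as reported, numbered 2 with limma-voom quality weights (7.91% of all genes), 1 without the libraries of high Xist (7.89%) and 0 to 5 when 1 library was left out (3.07% to 8.89%), with 5 without wild type replicate 2 (8.89%).

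Log2 differences that changed sign without the libraries of high Xist were 0.25 for Scn4b, 0.14 for Cacng5, 0.10 for Cacna2d3, 0.07 for Scn2b, 0.02 for Scn8a and Cacna1a, 0.01 for Cacna1c and Cacnb3, 0.00 for Cacna1d and Cacng7, and -0.02 for Scn3a. With quality weights they were 0.08 for Scn4b and Cacng5, 0.01 for Cacna2d3 and -0.01 for Cacna1d. Cacng5 was at 0.06 with the striatum covariate and Cacna1a at 0.02 with the length trend removed. Cacna1e was at 0.00 with DESeq2 and its size factors and at -0.01 with upper quartile factors, library totals and every gene kept.

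With 1 library left out in turn, differences that changed sign ran from -0.04 to 0.05 for Cacna1e, -1.30 to 0.58 for Scn4b, -0.02 to 0.08 for Cacna1d, -0.30 to 0.12 for Cacna2d3, -0.23 to 0.23 for Cacng5, -0.07 to 0.05 for Cacna1a, -0.09 to 0.01 for Scn8a, -0.24 to 0.04 for Scn2b, -0.21 to 0.01 for Cacna1c, -0.03 to 0.09 for Scn1a, -0.03 to 0.07 for Cacna2d1, -0.11 to 0.08 for Cacna1g and -0.40 to 0.05 for Cacna1h. These lists hold only members whose values in every library were given. Others also changed sign, among them Cacng6, from -0.2 to 0.71 over all fits, and Cacna1s, from -0.38 to 0.21. The cause of these changes was not tested. No paired analysis was possible because the replicate numbers follow record order and the labels pair no libraries. Genes near 0 CPM such as Cacng1 are limited by depth.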

Other observations

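Of the listed partners and related channels whose library ranges were separate, 3 stood outside the unadjusted threshold and were chosen after their values were seen. Rims2, an active zone protein that binds presynaptic calcium channels, was at 188, 175 and 170 CPM in heterozygotes and 168, 161 and 159 CPM in wild type, a log2 difference of 0.13 (SE 0.06). Nalcn, the sodium leak channel that helps set the resting potential, was at 126, 126 and 125 CPM against 135, 142 and 131 CPM (log2 difference -0.11, SE 0.06). Tpcn2, a cation channel of endosomes and lysosomes, was at 1.87, 1.71 and 1.64 CPM against 1.97, 2.10 and 2.24 CPM (log2 difference -0.28, SE 0.16). None passed after adjustment (edgeR adjusted p = 0.864 for each).

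Oligodendrocyte markers were higher on average in heterozygotes for 5 of 5 genes, with sums of 9400 to 13800 CPM against 7710 to 10100 CPM. Those of pericytes and smooth muscle were lower for 7 of 7, at 70.6 to 74.1 against 84.4 to 128 CPM. Meningeal fibroblast markers were lower for 5 of 5, at 28.7 to 30.9 against 31.5 to 67.6 CPM, and endothelium markers for 4 of 5, at 111 to 117 against 120 to 127 CPM. Thalamus markers were lower for 1 of 5 and their sum was higher, at 38.7 to 48.2 against 28.1 to 38.3 CPM. Ramp3 gave much of that sum, with 19.1 to 25.8 CPM in heterozygotes and 10.7 to 17.1 CPM in wild type. It was the only thalamus marker with separate ranges. Tcf7l2, Prkcd, Lef1 and Calb2, the rest of that list, each overlapped between genotypes. Astrocyte and microglia markers were each lower on average for 5 of 5, with sums that overlapped, at 3480 to 3770 against 3700 to 3800 CPM and 288 to 318 against 313 to 350 CPM. The part of these lists in the channel levels was not tested.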
